A study of Mus musculus with 6 samples.

Results

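The genes described here are the cadherins named Cdh and a number and the protocadherins (Pcdh) of mouse lung cells. The set holds the gene rows of the deposited count table that match these names and have 5 or more UMIs (unique molecular identifiers, which count each captured RNA molecule once) over all barcodes. It has 66 members among 27998 gene rows, of which 16865 reached the same minimum. By name, 93 rows matched, of which 17 had 0 UMIs and 10 had 1 to 4. Just below the minimum were Cdh16, Pcdhb2 and a Pcdha11 row with 4 UMIs and Cdh3 (P-cadherin) and Pcdhgb7 with 3, and 11 members lay just above it with 5 to 9 UMIs.

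The cells came from lungs of SMA-GFP;Tbx4cre;RosaTdTomato mice, in which GFP reports smooth muscle actin (SMA) and a Tbx4 Cre turns on the tdTomato (Tm) lineage reporter. Viable cells without Epcam, CD31 and CD45 on their surface were sorted as SMA+Tm+, SMA-Tm+ or SMA-Tm-, either from normal lung (day 0) or at day 21 of injury by bleomycin. Each of the 6 combinations is 1 sample; sources used here give neither the age nor the number of mice, nor whether they were pooled. The stated purpose was to stratify the mesenchymal cells of normal and fibrotic lung. The table pools all samples, and its barcodes end in a suffix from 1 to 6 that nothing used here ties to a day or a gate. It was therefore read as 1 pooled sample, with no comparison of days or gates, no p-value and no replicate check. Intervals below are 95% intervals that cover counting error only.

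Cadherins are membrane proteins that bind the like cadherin on a neighbouring cell in the presence of calcium. Type I cadherins such as Cdh1 (E-cadherin) and Cdh2 (N-cadherin), and type II cadherins such as Cdh5 (VE-cadherin) and Cdh11 (OB-cadherin), bind catenins that couple them to actin. Delta protocadherins are single genes with their own cytoplasmic domains, while the alpha, beta and gamma protocadherins lie in 3 gene clusters side by side. Cells of different types commonly hold different cadherins, and in lung Cdh1 is known for epithelial junctions and Cdh5 for endothelial junctions.

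Of the 10410 barcodes in the table, 110 had 1 of 55 sequences that occurred under more than 1 suffix. After filtering, 9919 cells with 34177581 UMIs were left. Cells were put in classes by gate genes, none of them a member. Fibroblasts had 3 or more UMIs of Col1a2 and Col3a1 and none of the other gates, which gave 2380 cells, 516 in suffix 1 and 1728 in suffix 4. Those with a UMI of exactly 1 of Hhip, Npnt, Pi16 and Kcnk2 formed 4 subtypes, with 512 Hhip, 728 Npnt, 275 Pi16 and 26 Kcnk2 cells. Another 177 held Npnt and Kcnk2, 256 held other combinations and 406 held no gate gene. The remaining classes were 84 mural cells (vessel-wrapping cells), 80 mesothelial, 546 endothelial, 80 epithelial and 4348 leukocytes. Leukocytes, endothelial and epithelial cells were in the table although the sort was against their surface antigens. A further 1446 cells passed conflicting gates, 835 of them the leukocyte and the endothelial gate, and 955 passed none. Leukocytes, endothelial and epithelial cells that also passed the collagen gate were among the conflicting. Mesothelial and mural cells kept their class whatever their collagen UMIs. Levels of fibroblast members in these classes are thus not on equal terms.

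Markers that took no part in the gates were mostly in the class they name. The 7 ductal myofibroblast markers summed to 3021 CPM (the UMIs of a gene per 1000000 UMIs of the class) in Hhip fibroblasts. The 7 Col13a1 alveolar fibroblast markers reached 2145 CPM in Npnt fibroblasts, and the 7 Col14a1 adventitial fibroblast markers 9427 CPM in Pi16 fibroblasts. Mural cells also held 1693 CPM of the ductal markers and 802 CPM of Hhip itself. Epithelial cells held 163252 CPM of the 11 epithelial markers, and also 17687 CPM of the 7 leukocyte markers against 16019 in leukocytes, with a median marker at 13.9 against 1194 CPM. That list includes Cd74 and Lyz2, which alveolar epithelial cells are also known to express. Suffixes 1 to 3 held Y-linked transcripts and suffixes 4 to 6 held Xist, so suffixes also differ in the sex of the mice.

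The results on protocadherins turn on 4 delta members on different chromosomes, and their promoters are shown so that a reader can set them side by side. Each is the 250 bases before the RefSeq gene start in GRCm38.p6, read 5′ to 3′ on the gene's strand, for Pcdh17 at chr14:84443313-84443562 (+), Pcdh7 at chr5:57717831-57718080 (+), Pcdh18 at chr3:49757317-49757566 (-) and Pcdh19 at chrX:133688994-133689243 (-). Capitals mark a CCAAT box on either strand, spelled CCAAT or ATTGG, a motif chosen after the windows had been read.
Pcdh17: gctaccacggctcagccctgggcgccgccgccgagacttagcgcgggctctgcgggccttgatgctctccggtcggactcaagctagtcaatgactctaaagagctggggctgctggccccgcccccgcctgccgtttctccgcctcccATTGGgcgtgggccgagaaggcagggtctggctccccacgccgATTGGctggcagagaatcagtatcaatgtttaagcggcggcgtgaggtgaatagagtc
Pcdh7: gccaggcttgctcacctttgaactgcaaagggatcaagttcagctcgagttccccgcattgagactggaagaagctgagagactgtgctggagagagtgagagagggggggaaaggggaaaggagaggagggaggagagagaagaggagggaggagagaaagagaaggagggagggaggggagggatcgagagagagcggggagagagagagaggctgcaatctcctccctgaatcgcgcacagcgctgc
Pcdh18: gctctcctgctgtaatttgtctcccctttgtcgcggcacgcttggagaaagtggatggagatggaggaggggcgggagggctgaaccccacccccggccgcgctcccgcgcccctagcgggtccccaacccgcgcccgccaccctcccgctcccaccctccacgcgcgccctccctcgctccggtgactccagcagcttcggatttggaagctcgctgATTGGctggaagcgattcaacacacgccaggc
Pcdh19: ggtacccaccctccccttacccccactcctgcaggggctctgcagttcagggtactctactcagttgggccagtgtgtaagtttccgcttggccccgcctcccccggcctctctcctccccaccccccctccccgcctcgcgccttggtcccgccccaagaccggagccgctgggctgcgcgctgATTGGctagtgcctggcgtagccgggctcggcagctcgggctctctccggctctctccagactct
Pcdh17 had 2 such boxes, whose middles lay 99 and 56 bases before the start. Pcdh18 had 1 at 30 bases, Pcdh19 had 1 at 63 bases, and Pcdh7 had none in this window. The same motif was in 33.8% of all 32851 promoter windows of this length in the table and in 9 of the 15 windows that matched 14 members. The windows of Pcdh17, Pcdh18 and Pcdh19 held 21, 23 and 16 CG pairs, that of Pcdh7 held 7, and the median of all windows was 6. None of the 4 held the letters TATAAA, which were in 12.4% of all windows (as TATAAA or TTTATA).

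The 66 members had 11458 UMIs in the kept cells. Cdh5 and Cdh11 together gave 47.8% of them, 19 members had 100 or more UMIs and 47 had fewer. Counts are tags at the 3′ end of a transcript, which do not scale with its length, so CPM is compared between genes without a length correction. By family, type II cadherins (7 members) had 5712 UMIs, delta protocadherins (8) had 2617, the beta cluster (20) 1088, type I cadherins (3) 966, the gamma cluster (20) 810, other protocadherins (3) 135, other cadherins (4) 123 and the alpha cluster (1) 7. The summed members stood at 2452 CPM in endothelium, at 435 to 735 CPM in the 4 single-gate fibroblast subtypes, at 726 in mural cells, 495 in mesothelium and 301 in epithelium. Leukocytes had 27.2 CPM and served as the background level, except for Cdh1, which made up 34.7% of their member UMIs (see the last section).

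**Figure D1:**
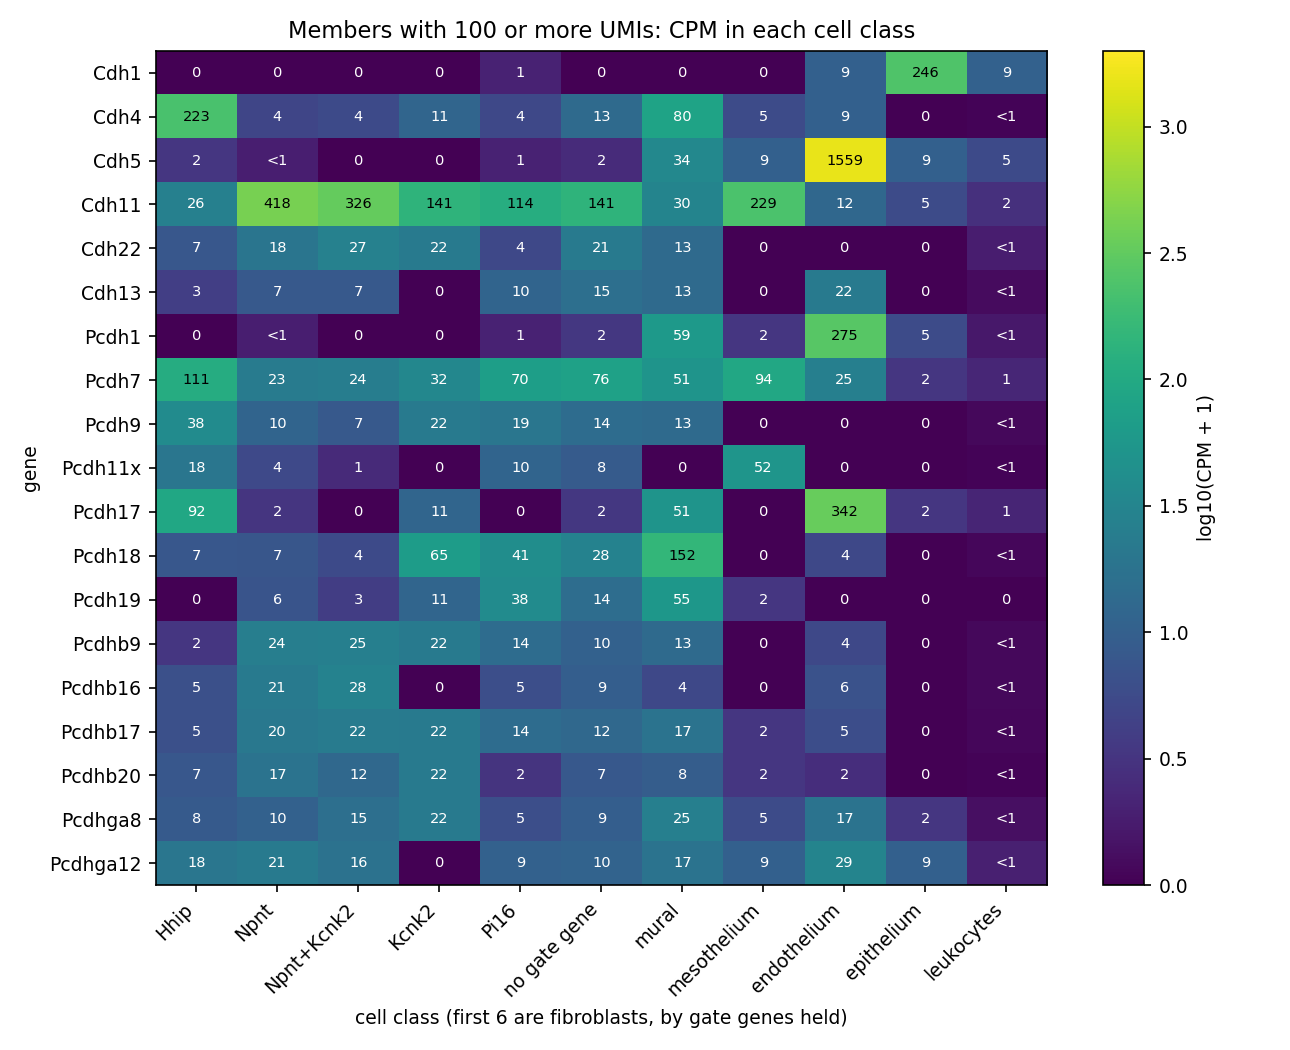
Levels of the 19 members with 100 or more UMIs (rows) in 11 cell classes (columns). Colour is log10(CPM + 1) and the printed number is the CPM; Cdh4 at 223 CPM in Hhip fibroblasts, Cdh11 at 418 in Npnt fibroblasts, Pcdh18 at 152 in mural cells, Cdh5 at 1559 in endothelium and Cdh1 at 246 in epithelium stand out within their columns.

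In the type I group, Cdh1 was the epithelial member and Cdh4 (R-cadherin) the member of Hhip fibroblasts. Cdh1 stood at 246 CPM (201 to 297) in epithelial cells and made up 81.5% of their member UMIs. Its 106 UMIs there were spread over the suffixes, with 251, 269, 315, 140, 279 and 188 CPM in suffixes 1 to 6. Fibroblasts had 1 Cdh1 UMI in all 2380 cells, and endothelium had 9.23 CPM, where 10 of the 11 UMIs came from suffix 3. A Cdh1 UMI was found in 58.8% of epithelial cells at a median of 4330 UMIs per cell and in 2.83% of leukocytes at 2797.5.

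Cdh4 stood at 223 CPM (198 to 250) in Hhip fibroblasts, from 289 UMIs. Npnt, Pi16 and Kcnk2 fibroblasts had 9, 4 and 1 Cdh4 UMIs, or 3.94, 4.20 and 10.8 CPM, and the interval of the Hhip class overlapped none of theirs. Within suffix 1 the Hhip class had 287 CPM against 0 in Npnt and Pi16 fibroblasts, and within suffix 4 it had 199 against 4.49 and 5.57 CPM, so the order was the same in both. Mural cells came next with 80.2 CPM (48.3 to 125), at 142 in suffix 1 and 74.4 in suffix 4. Mural cells also held ductal markers and Hhip (above), and whether these have a part in this value was not tested. Endothelium had 9.23 CPM, mesothelium 4.72 and leukocytes 0.0642, and epithelium had none.

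A Cdh4 UMI was seen in 38.1% of Hhip cells, 14.3% of mural cells, 1.1% of Npnt cells and 0.023% of leukocytes. With each cell thinned to 1000 UMIs the shares were 20.7%, 6.95% and 0.373% in the first 3 classes. The order of the classes was therefore the same at equal depth. Cdh2 had few UMIs: 9 in mural cells (38.0 CPM, 17.4 to 72.1), 6 in all fibroblasts and 12 in leukocytes. N-cadherin was thus detected in mural cells at 48.6 times (15.5 to 166) the fibroblast CPM, on counts too small for the minimum applied to comparisons.

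In the type II group, Cdh11 was the leading member of Npnt fibroblasts and Cdh5 that of endothelium. Cdh11 stood at 418 CPM (392 to 446) in Npnt fibroblasts at 326 (284 to 372) in those that also held Kcnk2 and at 249 (221 to 280) in other gate combinations. Mesothelium followed with 229 CPM (186 to 279), then Kcnk2 fibroblasts with 141 (74.9 to 241), fibroblasts without a gate gene with 141 (121 to 163) and Pi16 fibroblasts with 114 (93.9 to 138). These last 3 overlapped one another. Mural cells at 29.6 (11.9 to 60.9) and Hhip fibroblasts at 26.2 (18.2 to 36.7) also overlapped, and endothelium at 11.7, epithelium at 4.63 and leukocytes at 1.86 CPM were lower. Endothelium, epithelium and leukocytes had been cleared of cells that passed the collagen gate, while mesothelium and mural cells had not.

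The order of the 3 large subtypes for Cdh11 was the same within suffixes. Hhip, Npnt and Pi16 fibroblasts had 27.8, 548 and 140 CPM in suffix 1 and 24.8, 390 and 114 CPM in suffix 4. A Cdh11 UMI was found in 66.8% of Npnt, 28.7% of Pi16, 4.49% of Hhip and 58.8% of mesothelial cells, and in 0.575% of leukocytes. Thinned to 1000 UMIs, the shares were 36.1%, 11.6%, 1.87%, 19% and 0.154%. Mesothelial cells were the deepest of these, with a median of 5025.5 UMIs, and at equal depth their share lay between those of Npnt and Pi16 fibroblasts.

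Cdh11 and Cdh4 were seldom in the same cell. Of the 242 fibroblasts with a Cdh4 UMI, 6.20% also held Cdh11, against 42.1% of all fibroblasts. The values were 3.61% against 25% in suffix 1 and 6.45% against 46.1% in suffix 4. Cells with Cdh4 held Pcdh17 in 16.5% of cases against 4.24% of all fibroblasts, and Pcdh7 in 26.0% against 14%. Cells with Cdh11 held Cdh22 in 8.89% against 5.55% and Pcdh7 in 9.09% against 14%. Of the 345 Cdh4 UMIs in fibroblasts, 289 were in the Hhip class, which held little Cdh11 and much Pcdh17 as a whole. The shares thus restate differences between classes. They do not show that these genes avoid or accompany each other among cells of 1 class. They describe pooled cells of unequal depth and were not tested.

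Cdh5 stood at 1559 CPM (1489 to 1632) in endothelium, from 1859 UMIs. Suffixes 1 to 6 gave 1800, 1785, 1466, 1268, 1438 and 1809 CPM there in turn. All fibroblasts had 1.3 CPM (10 UMIs), leukocytes 4.56 and mesothelium 9.43. A Cdh5 UMI was found in 80.4% of endothelial cells and 1.33% of leukocytes. Mural cells had 33.8 CPM, but their 8 Cdh5 UMIs all came from the 18 mural cells of suffix 1, and the mural cells of suffix 4 had none.

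Cdh22, a type II cadherin, had 153 UMIs in fibroblasts, 135 of them in suffix 4. Fibroblasts with Npnt and Kcnk2 had 26.8 CPM (15.9 to 42.4), Kcnk2 fibroblasts 21.6 from 2 UMIs, fibroblasts without a gate gene 21.4 (14.1 to 31.1) and Npnt fibroblasts 18.4 (13.2 to 24.8). These 4 intervals overlapped. Fibroblasts with other gate combinations had 45.6 (33.9 to 60), which overlapped the first 2 of these classes and lay above the other 2. Hhip and Pi16 fibroblasts were lower at 6.95 and 4.20 CPM, and no UMI was seen in mesothelium, endothelium or epithelium. The other type II members had few UMIs, with Cdh10 at 11, Cdh24 at 8 and Cdh12 at 4 in the class that held most of theirs (leukocytes for the first 2 and mesothelium for Cdh12). Cdh19, known from glial cells of nerves, had 6 fibroblast UMIs, 4 of them in cells with Npnt and Kcnk2.

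Among the other cadherins, Cdh13 (T-cadherin, which is held in the membrane by a lipid anchor and has no cytoplasmic domain) stood at 21.8 CPM (14.2 to 31.9) in endothelium. It had 10.5 CPM in Pi16, 7.44 in Npnt and 3.09 in Hhip fibroblasts, and 15 in those without a gate gene. The endothelial interval lay above those of Npnt and Hhip fibroblasts and overlapped those of the other classes named here.

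Among delta protocadherins, Pcdh17 was high in endothelium and in Hhip fibroblasts. It stood at 342 CPM (310 to 377) in endothelium, where suffixes 1 to 6 had 394, 456, 472, 266, 223 and 316. Hhip fibroblasts had 91.8 CPM (76.1 to 110), at 103 in suffix 1 and 88.6 in suffix 4, and mural cells had 50.7 (26.2 to 88.5). Npnt fibroblasts had 5 UMIs (2.19 CPM), and Pi16 fibroblasts had 0 in 953411 UMIs, a count that allows up to 3.15 CPM. In the pooled cells the Hhip and mural intervals overlapped, and both lay above the Npnt and Pi16 values. Mural cells had 170 CPM (62.6 to 371, 6 UMIs) in suffix 1 and 31.9 (11.7 to 69.4) in suffix 4. In suffix 4 that interval lay below the Hhip interval of 70.4 to 110. The mural cells of suffix 1 also held all 8 mural Cdh5 UMIs (227 CPM). Whether endothelial RNA has a part in the mural Pcdh17 value was not tested. A Pcdh17 UMI was found in 38.6% of endothelial cells, 17.6% of Hhip cells and 0.322% of leukocytes, and in 25.3% and 8.02% of the first 2 classes thinned to 1000 UMIs.

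Pcdh7 was the most widely shared of the delta members. Hhip fibroblasts had 111 CPM (93.7 to 131), mesothelium 94.3 (67.4 to 128), fibroblasts without a gate gene 76 (61.6 to 92.8), Pi16 fibroblasts 70.3 (54.5 to 89.2) and mural cells 50.7 (26.2 to 88.5). Npnt fibroblasts had 22.7 CPM (17.0 to 29.8), with an interval below those of the Hhip and Pi16 classes. Within suffix 1 the Hhip, Npnt and Pi16 classes had 134, 0 and 67.1 CPM, and within suffix 4 they had 104, 25.9 and 66.9. Pcdh9 had 37.8 CPM (28 to 50) in Hhip fibroblasts, 18.9 in Pi16 and 10.5 in Npnt fibroblasts, and Pcdh11x had 18.5 CPM (11.9 to 27.6), 10.5 and 4.37 in the same order. Mesothelium had no Pcdh9 UMI but held 51.9 CPM (32.5 to 78.6) of Pcdh11x, with 20 of its 22 UMIs in suffix 4 (69.9 CPM, against 22 in suffix 1).

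Pcdh18 and Pcdh19 were, in the pooled cells, delta members higher in Pi16 fibroblasts and mural cells than in Hhip and Npnt fibroblasts. In Pi16 fibroblasts Pcdh7 had more UMIs (67) than either (39 and 36). Pcdh18 stood at 152 CPM (106 to 210) in mural cells, at 170 in suffix 1 and 144 in suffix 4. Pi16 fibroblasts had 40.9 CPM (29.1 to 55.9), at 39.2 and 41.8 in the same suffixes, and the 26 Kcnk2 fibroblasts had 64.9 from 6 UMIs. Hhip and Npnt fibroblasts had 6.95 and 6.56 CPM. In suffix 1 they had 11.1 (3.03 to 28.5) and 26.4 CPM (7.2 to 67.7). Both intervals overlapped that of Pi16 fibroblasts in suffix 1 (15.7 to 80.7), so the order is not resolved there. Fibroblasts without a gate gene held 35 Pcdh18 UMIs. Their 33.6 CPM in suffix 1 (15.4 to 63.7) overlapped the Pi16 interval there (15.7 to 80.7). In the mural cells the value was above that of every fibroblast class except the small Kcnk2 class, whose interval of 23.8 to 141 overlapped it.

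Pcdh19 stood at 54.9 CPM (29.2 to 93.9) in mural cells and 37.8 (26.4 to 52.3) in Pi16 fibroblasts, and these 2 overlapped. Its 13 mural UMIs all came from suffix 4 (69.1 CPM), while the 18 mural cells of suffix 1 held none. Pi16 fibroblasts had 50.3 CPM in suffix 1 and 34.8 in suffix 4, and fibroblasts without a gate gene had 22.4 and 11.8. Hhip fibroblasts had 0 UMIs, which allows up to 2.32 CPM, and Npnt fibroblasts had 6.12 CPM. A Pcdh19 UMI was found in 10.9% of Pi16 cells, 9.52% of mural cells and in no leukocyte.

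Pcdh1 divided vessel cells from fibroblasts. It stood at 275 CPM (246 to 307) in endothelium, with 223, 239, 225, 296, 335 and 289 CPM in suffixes 1 to 6. Mural cells had 59.1 CPM (32.3 to 99.2), at 56.8 in suffix 1 and 53.2 in suffix 4, and all fibroblasts had 6 UMIs (0.781 CPM). The endothelial marker list summed to 228 CPM in mural cells against 10472 in endothelium. In suffix 4, mural cells held 10 Pcdh1 UMIs and 0 Cdh5 UMIs, and the Cdh5 interval there reached up to 19.6 CPM. Whether endothelial RNA has a part in the mural Pcdh1 value was not tested.

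Protocadherins outside the delta group and the clusters had few UMIs. Pcdh12, known from endothelial junctions, had 41 UMIs in endothelium (34.4 CPM, 24.7 to 46.6) and 4 in all fibroblasts. Pcdh15, known from hair cells of the inner ear, had 17 UMIs in mesothelium (40.1 CPM, 23.4 to 64.2) and 3 in all fibroblasts. Of 8 Pcdh20 UMIs in fibroblasts, 7 were in Pi16 cells. Pcdh10, a delta member, had 3 UMIs in Hhip fibroblasts.

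**Figure D2:**
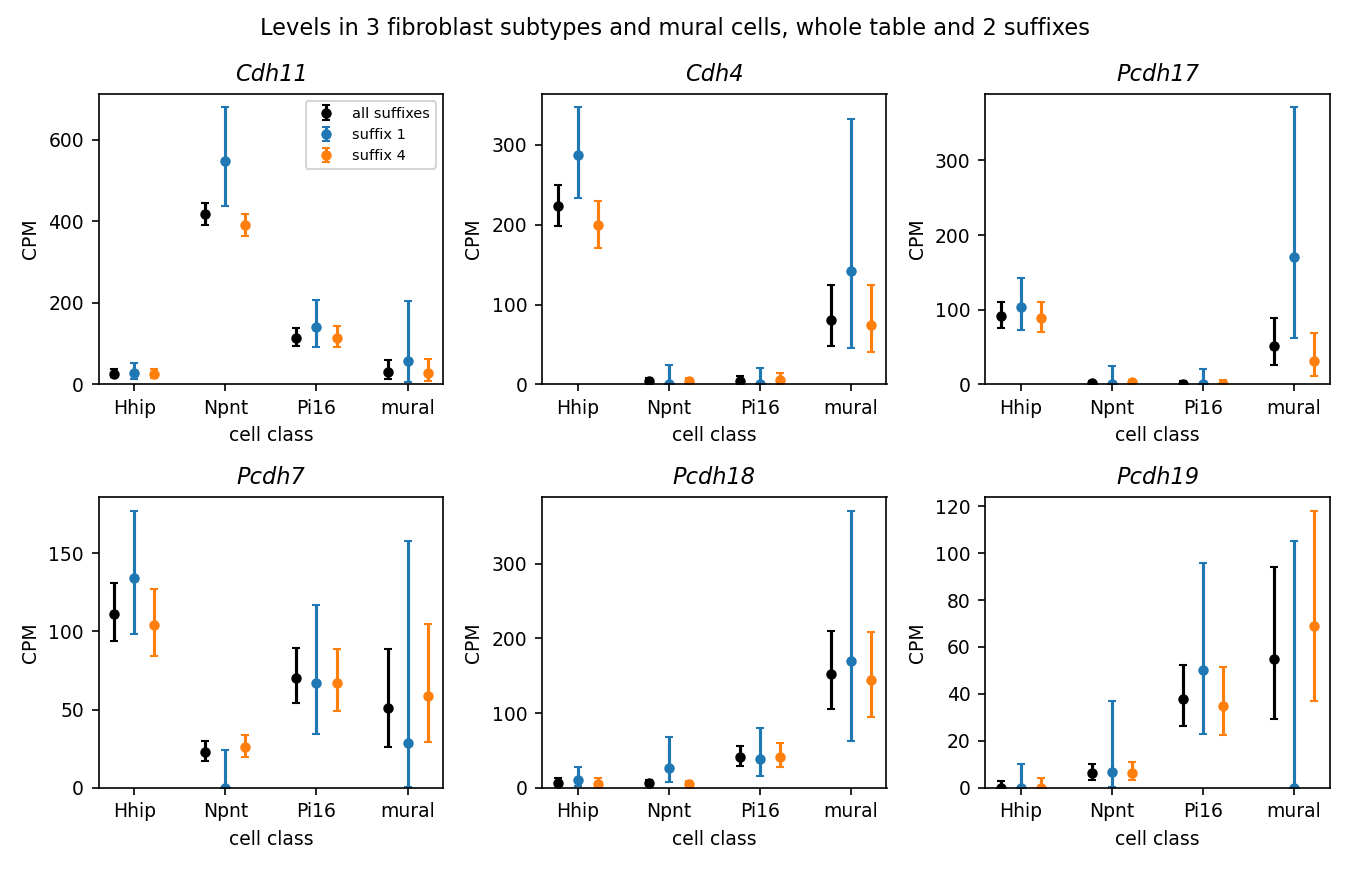
CPM of 6 members in Hhip, Npnt and Pi16 fibroblasts and mural cells, for all suffixes together, suffix 1 and suffix 4; bars are exact 95% Poisson intervals. In both suffixes Cdh4 and Pcdh17 are highest in Hhip fibroblasts among the 3 fibroblast classes and Cdh11 in Npnt fibroblasts, and the 18 mural cells of suffix 1 hold no Pcdh19.

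The clustered protocadherins were read as sums. The gamma genes are made with shared last exons, so a tag at the 3′ end does not tell them apart, and counts of single gamma rows are uncertain. How tags in shared last exons of the alpha and gamma clusters were counted is not stated. Their sums are therefore also uncertain when set beside those of other families. In the table, 2 member rows are listed as Pcdhga8: ENSMUSG00000103897 with 7 UMIs, and ENSMUSG00000023036 with 142 UMIs, which GENCODE M21 names Pcdhgc4. The alpha cluster has 1 member, Pcdhac2, with 7 UMIs in the kept cells, and its other rows lay under the UMI minimum. Beta genes each have a single exon with their own 3′ end.

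The beta cluster had its highest summed level in Npnt fibroblasts. Its 20 rows summed to 164 CPM (148 to 182) there and to 136 in fibroblasts with Npnt and Kcnk2. Pi16 fibroblasts had 74.5 CPM, endothelium 56.2, mural cells 46.4, Hhip fibroblasts 41.7, mesothelium 18.9, epithelium 2.32 and leukocytes 1.03. Hhip, Npnt and Pi16 fibroblasts had 33.4, 159 and 44.8 CPM in suffix 1 and 44.3, 160 and 86.4 in suffix 4.

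The 4 beta rows with 100 or more UMIs were Pcdhb9, Pcdhb16, Pcdhb17 and Pcdhb20. Pcdhb9 had 24.5 CPM (18.5 to 31.8) in Npnt, 13.6 in Pi16 and 2.32 in Hhip fibroblasts. Pcdhb16 had 21, 5.24 and 5.4 CPM in the same order, Pcdhb17 had 20.1, 13.6 and 5.4, and Pcdhb20 had 17.1, 2.1 and 6.95. In the pooled cells each was highest in Npnt fibroblasts among the 3 large subtypes. Within suffix 1, where Npnt fibroblasts had 1 Pcdhb20 UMI and Hhip fibroblasts had 3, Pcdhb20 was not, and its log2 ratio in the Npnt comparison below was -0.14. Of the beta rows with fewer UMIs, Pcdhb7 had 32 in Npnt fibroblasts, Pcdhb14 had 27, Pcdhb22 had 23, Pcdhb19 had 19, Pcdhb8 had 15 and Pcdhb12 had 13.

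The gamma cluster was spread over more classes. Its 20 rows summed to 99.8 CPM in endothelium, 88.7 in mural cells, 66 in Npnt, 50.9 in Hhip and 36.7 in Pi16 fibroblasts, 25.9 in mesothelium, 25.5 in epithelium and 2.76 in leukocytes. Levels differed by suffix: Npnt fibroblasts had 165 CPM in suffix 1 and 57.4 in suffix 4, Hhip fibroblasts 64 and 46.4, and Pi16 fibroblasts 83.9 and 23.7. Endothelium had 119 CPM in suffix 1, below Npnt fibroblasts and mural cells (227), and 67.6 in suffix 4, above both (63.8 in mural cells). The order of these 3 classes thus differed between suffixes, and their intervals overlapped within each. Pcdhga12 had 29.4 CPM (20.4 to 40.8) in endothelium, 21 in Npnt, 18.5 in Hhip and 9.44 in Pi16 fibroblasts, but the log2 ratio of endothelium to all fibroblasts was -0.43 in suffix 4 alone. The row ENSMUSG00000023036 listed as Pcdhga8 had 25.3 CPM (9.30 to 55.1) in mural cells, 16.8 in endothelium, 9.62 in Npnt, 7.72 in Hhip and 5.24 in Pi16 fibroblasts, with overlapping intervals for the fibroblast classes. Among gamma rows with fewer UMIs, Pcdhgc5 had 14 in Npnt fibroblasts and Pcdhgb4 had 12.

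**Figure D3:**
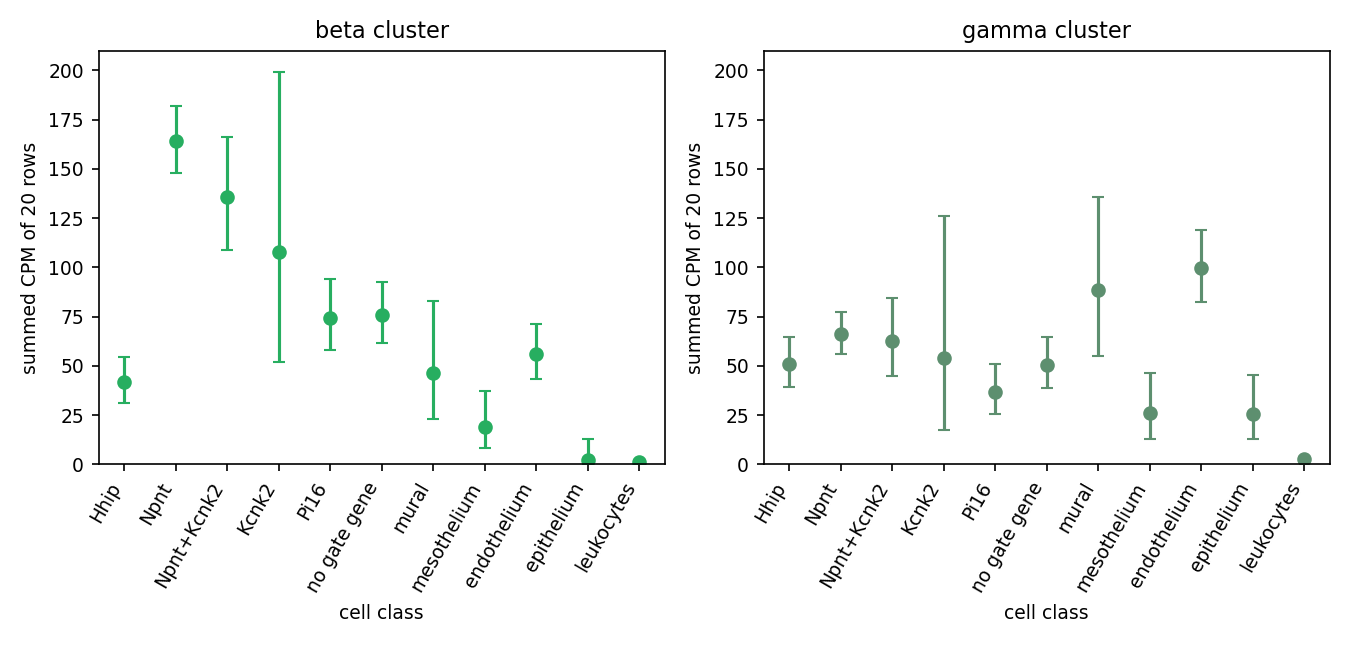
Summed CPM of the 20 beta rows and of the 20 gamma rows in each class, with exact 95% Poisson intervals. The beta sum is 164 CPM in Npnt and 41.7 in Hhip fibroblasts, while the gamma sum is 66 and 50.9 in the same classes and reaches 99.8 in endothelium.

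Classes were then set against each other over all genes. A gene counts as measured where equal CPM would put at least 5 UMIs on each side, and as higher or lower where its CPM ratio was past 2-fold. A side with 0 UMIs entered at 3 counts, which makes the ratio a bound. Kcnk2 fibroblasts, mural cells, mesothelium and epithelium had far fewer UMIs than their references. A member with few UMIs could be measured there mainly through the UMIs of the reference. Counts of higher and lower members in these classes therefore lean toward lower and are not read as a result about the members. The share of all measured genes past 2-fold in the same direction is the background for each count, and nothing particular to cadherins is read from a share near it. Fibroblast subtypes were set against the other 3 single-gate subtypes pooled, and the other classes against all fibroblasts, which are shared between those comparisons. Npnt fibroblasts, with 2286174 UMIs, gave most of the reference for the Hhip (1295871 UMIs) and Pi16 (953411 UMIs) classes. A member high in Npnt fibroblasts thus tends to be called lower in both, and such calls are not separate results.

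In Hhip fibroblasts, 5 of 24 measured members were higher and 14 were lower. Among all measured genes 6.07% were higher and 11.2% were lower, and the median log2 ratio was -1.3 over the members and 0.00 over all genes. The higher members were Cdh4 (log2 ratio 5.73, 4.96 to 6.62, or 53.1-fold), Pcdh17 (5.67, or 51.0-fold), Pcdh7 (1.60, 1.24 to 1.96), Pcdh11x (1.63) and Pcdh9 (1.52). Cdh11 was 12.3-fold lower (log2 -3.62, -4.16 to -3.13), Pcdh19 at least 6.61-fold lower, and 9 of 10 measured beta rows were lower with a median of -1.64. Beta rows called lower here were not all below Pi16 fibroblasts: Pcdhb16 had 5.4 CPM in Hhip and 5.24 in Pi16 fibroblasts. Pcdh18 (-1.37), Cdh13 (-1.39) and Cdh22 (-1.05) were also lower, although Cdh22 turned to 0.51 where every cell with Hhip was set against every fibroblast without it. Among the members called lower, the intervals of Cdh13 (-3.37 to 0.13), Pcdhb8 (-4.80 to 0.45) and Pcdhb19 (-3.96 to 0.15) include no change. Without suffix 4, fewer members were measured and 9 in place of 19 were past 2-fold.

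In Npnt fibroblasts, 13 of 29 measured members were higher and 7 were lower, beside 8.64% and 8.35% of all genes. The median log2 ratio was 0.62 over the members and 0.03 over all genes. Cdh11 was 6.28-fold higher (log2 2.65, 2.40 to 2.90), Cdh22 was higher by 1.52 (0.64 to 2.48), and 11 of 14 measured beta rows were higher with none lower and a median of 1.55. The 7 lower members were Cdh4 (-5.00) and the delta members Pcdh17 (-4.55), Pcdh7 (-2.01), Pcdh18 (-1.81), Pcdh11x (-1.73), Pcdh9 (-1.49) and Pcdh19 (-1.37). The Cdh22 ratio was -0.16 with all other fibroblasts as the reference, and the Pcdh18 ratio was 0.40 in suffix 1 alone. Without suffix 4, 5 in place of 20 members were past 2-fold.

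In Pi16 fibroblasts, 2 of 21 measured members were higher and 8 were lower, beside 4.65% and 11.2% of all genes. The 2 were Pcdh19 (9.25-fold, log2 3.21, 2.30 to 4.18) and Pcdh18 (5.01-fold, log2 2.32, 1.60 to 3.06). Pcdh17 was at least 10.8-fold lower, and Cdh4 (log2 -4.28), Cdh22 (-1.78), Cdh11 (-1.26) and Pcdhga12 (-1.05) were lower, as were 3 of 8 measured beta rows. For Cdh11 the ratio was -0.35 in suffix 1 and -1.25 in suffix 4, and for Pcdhga12 it was 0.33 in suffix 1. Without suffix 4, 4 in place of 10 members were past 2-fold.

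The 26 cells with Kcnk2 alone allowed 3 members to be measured, of which 1 was lower, beside 10.5% of all genes lower and 1.61% higher. A comparison of every fibroblast with Kcnk2 against those without it was added after this was seen. There 1 of 21 measured members was higher and 3 were lower, beside 0.775% and 5.1% of all genes. The higher member was Cdh22, at 39.2 against 16.8 CPM (2.33-fold, log2 1.22, 0.67 to 1.75), and the lower were Cdh4 (-2.77), Pcdh17 (-4.43) and Pcdh11x (-3.18). Of the 42 Cdh22 UMIs in cells with Kcnk2, 18 were in the 177 cells with Npnt and Kcnk2 and 2 in those with Kcnk2 alone. The rest were in the cells that held Kcnk2 in other gate combinations. Of the 270 fibroblasts with Kcnk2, 206 also held Npnt. Within Npnt fibroblasts, those with Kcnk2 differed by 0.55 (-0.34 to 1.37) for Cdh22 and by -0.36 (-0.58 to -0.15) for Cdh11, and 1 of 14 measured members, Pcdhb22, was past 2-fold (lower), beside 3.78% of all genes lower and 0.866% higher.

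In mural cells the minimum left 3 measured members, none higher and 1 lower, beside 3.61% and 7.08% of all genes. Cdh11 was 7.88-fold lower (log2 -2.98), Cdh4 differed by 0.84 (0.09 to 1.5) and Pcdh7 by -0.11. Members under the minimum had wide ratios, given as a description: Pcdh18 was 9.34-fold (log2 3.22, 2.65 to 3.77), Pcdh1 75.7-fold (27.3 to 240) and Pcdh19 5.08-fold (log2 2.34, 1.38 to 3.20) higher than in all fibroblasts. With a minimum of 20 UMIs over both sides, added after the data were seen, 7 members were past 2-fold.

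In mesothelium, 0 of 11 measured members were higher and 8 were lower, beside 6.82% and 16.7% of all genes. Mesothelium had 424011 UMIs against 7680851 in all fibroblasts, so the minimum was met mainly through fibroblast UMIs. It kept members with 0 mesothelial UMIs and left out some that were high in mesothelium. Cdh11 differed by -0.03 (-0.34 to 0.27) and Pcdh7 by 0.79, both within 2-fold of all fibroblasts. Cdh4 was lower (log2 -3.25), and Cdh22, Pcdh18, Pcdh17 and Pcdh9 had 0 UMIs in 80 cells. Pcdh11x (6.99-fold) and Pcdh15 (103-fold, 29.7 to 547, from 17 and 3 UMIs) were higher on counts under the minimum. The count of 8 rests on few cells: it was 4 without suffix 1 and 2 without suffix 4.

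In endothelium, 5 of 25 measured members were higher and 14 were lower, beside 14.9% and 18.2% of all genes. The 5 were Cdh5 (1197-fold, 650 to 2501), Pcdh1 (352-fold), Pcdh12 (66.0-fold), Pcdh17 (19.6-fold) and Cdh13 (2.94-fold). Cdh11 was 19.8-fold lower, 6 of 8 measured beta rows were lower, and Cdh22, Pcdh11x, Pcdh19 and Pcdh9 had 0 UMIs. None of 4 measured gamma rows was past 2-fold. Of the 6 beta rows, Pcdhb9 had 5 endothelial UMIs and turned to a log2 ratio of 1.05 in suffix 1 alone. In suffix 1 alone and in suffix 4 alone, fewer members were measured and 4 in place of 19 were past 2-fold.

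In epithelium, 1 of 12 measured members was higher and 10 were lower, beside 6.72% and 33.5% of all genes. The higher member was Cdh1 at 1886-fold (331 to 75188), a value that rests on 1 fibroblast UMI. Cdh11 (log2 -5.65) and Pcdh7 (-4.56) were lower, and Cdh4 had 0 UMIs. Without suffix 1 and without suffix 4, 4 and 7 members were past 2-fold in place of 11.

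**Figure D4:**
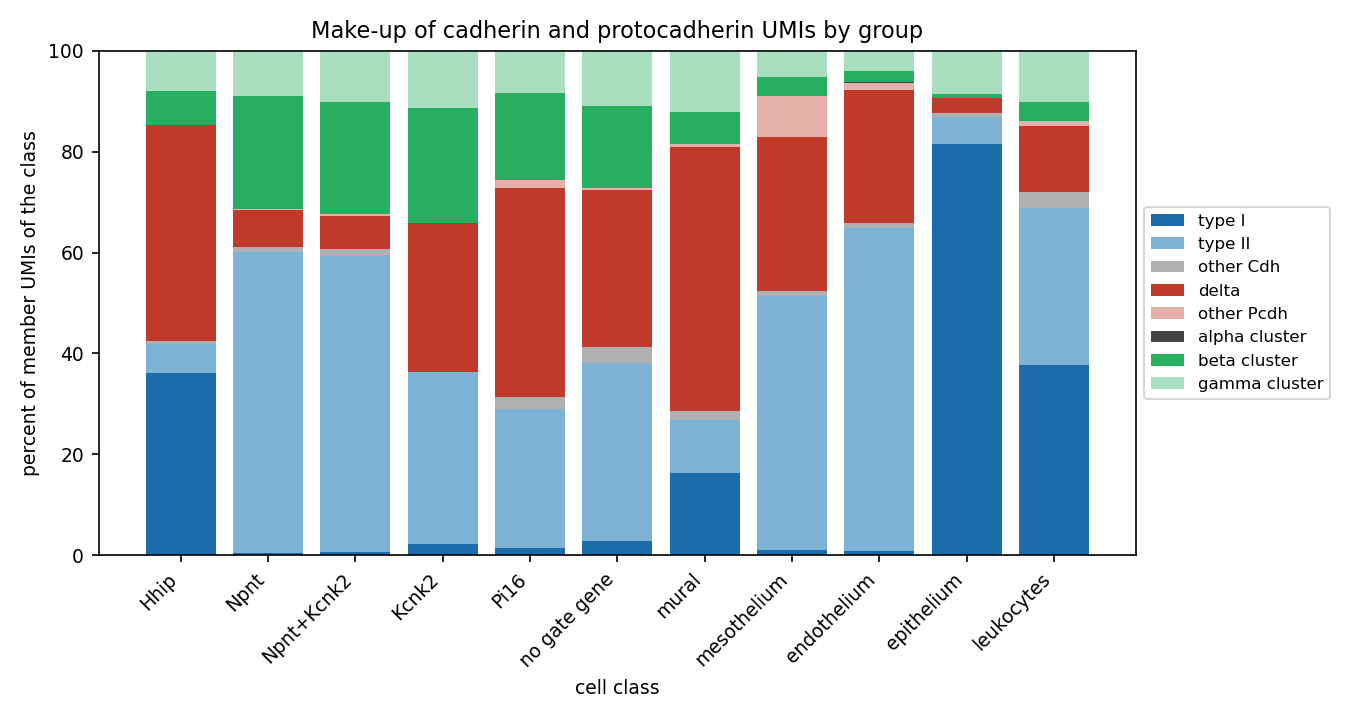
Share of each class's member UMIs by family group, in percent, stacked to the whole. Delta protocadherins make up 42.9% in Hhip, 41.4% in Pi16 and 7.26% in Npnt fibroblasts and 52.3% in mural cells, while type II cadherins make up 59.6% in Npnt and 5.79% in Hhip fibroblasts.

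The make-up of each class's member UMIs sums up these levels. Type II cadherins gave 59.6% in Npnt, 27.5% in Pi16 and 5.79% in Hhip fibroblasts, and type I cadherins gave 36.1% in the Hhip class. Delta protocadherins gave 42.9% in Hhip, 41.4% in Pi16, 7.26% in Npnt fibroblasts, 52.3% in mural cells, 30.5% in mesothelium and 26.4% in endothelium. The delta members behind similar shares differed, with Pcdh7 and Pcdh17 leading in Hhip fibroblasts (17.7% and 14.7% of member UMIs) and Pcdh7, Pcdh18 and Pcdh19 in Pi16 fibroblasts (16.1%, 9.4% and 8.67%). In mural cells Pcdh18 led with 20.9%, then Cdh4 with 11%. In mesothelium Cdh11 led with 46.2%, then Pcdh7 with 19%, Pcdh11x with 10.5% and Pcdh15 with 8.1%.

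Of the partner genes of cadherins (catenins, desmosome genes, large cadherins of the Fat, Dachsous and Celsr families, nectins, phosphatases, proteases and EMT factors), 58 were in the table. In Hhip fibroblasts 3 of 31 measured were higher and 6 lower (6.07% and 11.2% of all genes), in Npnt fibroblasts 7 of 33 and 3 (8.64% and 8.35%), and in Pi16 fibroblasts 1 of 29 and 5 (4.65% and 11.2%). The 1 in Pi16 and the 3 in Npnt fibroblasts are near these background shares. The large cadherin Fat3 was higher in Npnt fibroblasts (log2 3.60) and lower in Hhip (-3.26) and Pi16 fibroblasts (-3.28), in comparisons that share their cells. Ctnnd2 (delta-catenin, which binds the membrane-near part of classical cadherins) was higher in Npnt (4.43, 1.79 to 9.80) and lower in Hhip fibroblasts (-3.03, -8.40 to -0.39). Both ratios rest on the same few UMIs, 21 in Npnt and 1 in Hhip fibroblasts. Among EMT factors, Twist2 was higher in Pi16 fibroblasts at 89.2 against 10.3 CPM (3.11) and lower in Npnt fibroblasts (-2.93), and Snai2 was lower in Hhip fibroblasts (-2.22). Dchs2, a large cadherin that pairs with Fat proteins, was lower in Npnt fibroblasts (-3.29, -8.73 to -0.47), on 1 UMI against 10.

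Outside the fibroblasts, 2 of 20 measured partners were higher and 0 lower in mural cells (3.61% and 7.08% of all genes), and 2 of 25 and 7 in mesothelium (6.82% and 16.7%), where the higher share is near the background. In endothelium 13 of 31 were higher and 10 lower (14.9% and 18.2%), and in epithelium 6 of 26 and 10 (6.72% and 33.5%). Endothelium held Ptprb, the phosphatase known to act on VE-cadherin, at 1353 against 2.08 CPM in fibroblasts (log2 9.34). Jup (plakoglobin, 3.37), Ptprm (3.33), Tjp1 (2.62), Pkp4 (2.51) and Ctnnd1 (known as p120, 2) were also higher there, and Snai2 (-3.32), Twist2 (-2.90), Arvcf (-2.59) and Snai1 (-2.37) were lower. Ptprf was higher in epithelium (4.3) and mesothelium (3.39), Ctnnal1 was higher in mesothelium (2.26), and Fat1 in mural cells (2.03). Zeb2, a repressor of Cdh1 in epithelial cells, was lower in epithelium (-4.08) and mesothelium (-2.99), as was Zeb1 in epithelium (-3.10). Twist2 (-3.76) and Arvcf (-2.13) were also lower in epithelium, and Arvcf (-2.69) and Dchs1 (-2.88) in mesothelium. Snai1 and Snai2 had 0 UMIs in both classes.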

How the data were processed

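Droplet 3′ RNA libraries of sorted mouse lung cells were counted by the authors with Cell Ranger 1.3.0 and STAR 2.5.1 on mm10, per the submitters' processing notes. The deposited count table gives whole UMI counts, not normalized, for 27998 genes and 10410 barcodes. The authors' normalized table is a signal, each barcode's counts scaled to 2631.5, the median total (largest gap 4.775e-12), and was used only for an alternative. Barcode suffixes are not tied to samples, so no sample comparison was made; 0 columns belonged to other samples.

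The cell filter required at least 500 genes and no more than 10% of UMIs from mitochondrial genes (9994 barcodes), and 75 doublets (0.75%) called by Scrublet (scanpy 1.11.5, seed 0, per suffix) were removed, leaving 9919 with a median of 2699 UMIs. Suffixes 1 to 6 held 1320, 1980, 1372, 2990, 1574 and 683 cells, with median UMI counts from 1886 to 3633.5. Leukocytes needed UMIs of 2 of 5 genes (Ptprc, Laptm5, Coro1a, Cd53, Rac2), mural cells 2 of 5 (Cox4i2, Higd1b, Notch3, Rgs5, Kcnj8), mesothelium 2 of Wt1, Upk3b and Msln, endothelium Pecam1 and epithelium Epcam. UMIs were summed per class; levels have exact Poisson, ratios exact conditional binomial and shares of cells exact binomial intervals (Python 3.11.15, scipy 1.17.1). They cover counting error only: cells are not replicates. The ratio script was tested on simulated data.

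Members with 100 or more UMIs are named in full; others are counted and named where 10 or more UMIs lay in 1 class or a class had 0, and partner genes where past 4-fold. A few others with fewer UMIs (such as Cdh2 and Pcdh20) were named after their values were seen. Members and lists were chosen with earlier results of these data known. Promoters are from RefSeq; 65 of 66 identifiers matched GENCODE M21. Alternatives covered the cell filter, doublets, gates, suffixes, the reference, the UMI minimum and the normalized signal.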

Additional observations from a re-analysis of the deposited data

How the results depend on the processing

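Of 72 named values past 2-fold, 816 alternative values were computed. Of these, 809 had the same direction, 719 were also past 2-fold and 7 were reversed, and 27 of the 72 were past 2-fold under every alternative that gave a value. The reversed ones were the log2 ratios of Cdh22 in Hhip fibroblasts, 0.51 with any cell holding the gate gene against all without it; of Cdh22 in Npnt fibroblasts, -0.16 with all other fibroblasts as reference; of Pcdh18 (0.40) and Pcdhb20 (-0.14) in Npnt fibroblasts and of Pcdhb9 in endothelium (1.05) in suffix 1 alone; and of Pcdhga12 in Pi16 fibroblasts, 0.33 in suffix 1 alone and 0.51 without suffix 4. The cause was not tested.

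Of 96 alternative counts of members past 2-fold, 56 were within 1.5 times the main count. Splitting by suffix leaves fewer cells and so fewer measured members. Hhip fibroblasts (19) had 9 without suffix 4 and 6 in suffix 1 alone, Npnt fibroblasts (20) had 5 and 4, and Pi16 fibroblasts (10) had 4 and 2. With any cell holding the gate gene, Hhip had 12, Pi16 had 6 and Kcnk2 fibroblasts had 4, and against all other fibroblasts Npnt had 13. Kcnk2 fibroblasts (1) had 0 without suffix 1, without suffix 4, in either suffix alone, under stricter gates, with 10 UMIs expected and against all other fibroblasts, 2 at 1000 genes and 5% mitochondrial UMIs, 2 with mean normalized signal and 2 with subtypes weighted equally. Mural cells (1) had 2 at 1000 genes and 2 in suffix 4 alone. Mesothelium (8) had 5 at 1000 genes, 4 without suffix 1, 2 without suffix 4, 0 in suffix 1 alone, 2 in suffix 4 alone and 1 with 10 UMIs expected. Endothelium (19) had 4 in suffix 1 alone and 4 in suffix 4 alone. Epithelium (11) had 3 at 1000 genes, 4 under stricter gates, 4 without suffix 1, 7 without suffix 4, 3 in suffix 1 alone, 1 in suffix 4 alone and 3 with 10 UMIs expected. With 20 UMIs over both sides, added after the data were seen, Kcnk2 fibroblasts had 6, mural cells 7 and mesothelium 14. No paired analysis was possible because the columns carry no replicate number and the table is 1 pooled sample. Depth limits members with few UMIs and the classes of 26 to 84 cells most.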

Other observations

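Cdh1 UMIs outside the epithelium were not spread evenly over leukocytes. Cells with 5 or more UMIs of Chil3, Ear1 and Ear2, genes of alveolar macrophages, held Cdh1 at 28.4 CPM (23.4 to 34.2), from 112 UMIs in 94 of 815 cells. B cells had 0.42 CPM, T cells 3.16, and dendritic cells had none in 227 cells. Of other epithelial transcripts looked at, those 815 cells held 0 UMIs of Krt18 and of Cldn3, 2 of Krt8 and 1 of Cldn7. The surfactant transcript Sftpc, which is abundant in lung epithelium, stood at 27.4 CPM there, 21 in B cells and 21.5 in T cells. The source of the Cdh1 UMIs in these cells was not tested. Cdh17 (LI-cadherin) had 7 UMIs in leukocytes, in 7 of 1001 B cells and in no T cell, macrophage or dendritic cell.

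Cdh22 was high in some fibroblasts that held several gate genes. The 177 cells with Npnt and Kcnk2 had 26.8 CPM (15.9 to 42.4), which overlapped Npnt fibroblasts (18.4, 13.2 to 24.8). The 41 cells with 3 or 4 gate genes had 99.3 CPM (60.7 to 153), against 6.95 in Hhip fibroblasts. Of these cells, 37 were in suffix 4, and their median was 4900 UMIs, against 2780.5 in Npnt fibroblasts; the part of depth in this value was not tested. The 94 cells with Hhip and Npnt had 47.7 CPM of Cdh22, 337 of Cdh11 and 23.9 of Cdh4. They held 541 CPM of Hhip and 148 of Aspn, against 2689 and 1482 in the Hhip class.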
